A study of Mus musculus with 25 samples.

Results

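Bacteroides was represented in the feces of these mice by a single amplicon sequence variant (ASV, a distinct 16S amplicon sequence after error removal). It was 1 of 1555 ASVs, chosen because its genus field read Bacteroides and nothing else, and its species field read Bacteroides caccae. The 4 ASVs with the bracketed genus name [Bacteroides], a spelling used for names awaiting revision, which here stood under the phylum Firmicutes, were left out by that rule. The Bacteroides ASV held 4414 of 300831 counts (1.47%) and was seen in 25 of 25 libraries. It was the 12th of 110 genera by total count, and the 18th ASV. The species name is that of the closest relative in a database that no source used here names.

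The libraries were full-length 16S rRNA gene amplicons read on a PacBio instrument from feces of C57BL/6 mice, 5 libraries in each of 5 groups. The groups were OVX+FMT, OVX+GEX, OVX+PBS, OVX and Sham. OVX usually stands for ovariectomy, which removes the main source of estrogen, FMT for fecal microbiota transplantation, and PBS for a buffered saline used as vehicle; GEX is not spelled out in the labels, and the title of the series speaks of a traditional decoction and of osteoporosis. The label of every sample gives a sex that is at odds with ovariectomy, so the sex is not stated here, and age, dose, duration, donor and cage were not given in the labels. All groups shared the strain, and Sham alone carried no OVX label. Library totals were 8498 to 22404 counts with a median of 10123. Labels call the samples separate but say nothing of cages or litters, so p-values measure only the spread between these libraries.

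Bacteroides are gram-negative anaerobes of the gut. They carry many polysaccharide utilisation loci, gene clusters whose products bind, cut and import glycans of plants and of host mucin, and B. caccae is known as a user of mucin glycans. Several Bacteroides also carry beta-glucuronidases, enzymes that remove glucuronic acid from conjugates excreted in bile, estrogen conjugates among them. None of these genes was measured here: a 16S count shows which relative was present, not what it carried. A share of counts is relative, so fewer Bacteroides cells, more cells of other bacteria and a different number of rRNA genes per cell cannot be told apart.

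The share of Bacteroides ran from well under 1% to over 3% of counts. It was under 1% in 13 of the 25 libraries and over 2% in 6. In OVX+FMT, replicates 1 to 5 had 1.32%, 0.977%, 1.34%, 0.970% and 2.98% of counts. In OVX+GEX they had 2.37%, 0.0601%, 0.236%, 1.02% and 2.53%. In OVX+PBS the shares were 1.86%, 0.942%, 1.92%, 3.03% and 3.35%. Thus 4 of 5 OVX+FMT libraries lay close together and replicate 5 lay above them, OVX+GEX held both very low and high libraries, and OVX+PBS had 1 library below 1%. In OVX the shares were 1.84%, 0.957%, 0.631%, 0.889% and 0.809%. In Sham they were 2.81%, 0.932%, 0.645%, 0.991% and 0.888%. Both of these groups had replicate 1 high and the other 4 libraries below 1%, and no pair of the 5 groups was free of overlap.

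**Figure D1:**
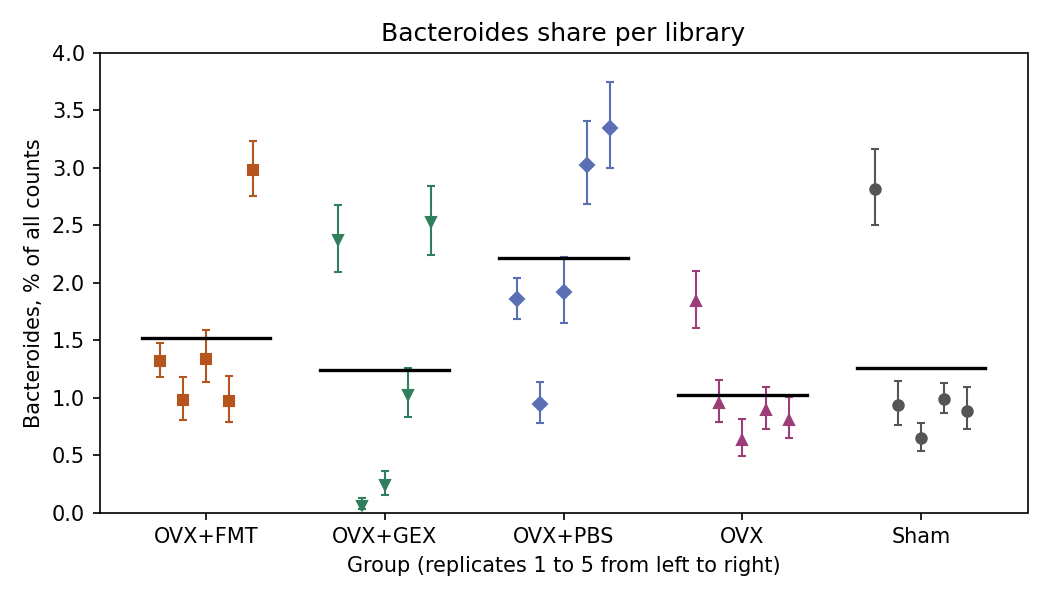
Bacteroides as a percent of all counts in each library. Points are libraries, replicates 1 to 5 from left to right in each group; thin bars are 95% Wilson intervals of a library's own share, and black lines are group means. OVX+PBS has the highest mean, 2.22%, and the lowest library is OVX+GEX replicate 2 at 0.0601%.

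Counting error was small beside the spread over all libraries, though not beside that within every group. The Bacteroides counts behind these shares ran from 6 in OVX+GEX replicate 2 to 589 in OVX+FMT replicate 5. The 95% Wilson interval of the OVX+GEX replicate 2 share was 0.0276% to 0.131%, and that of OVX+PBS replicate 5, the highest library, was 3.00% to 3.75%. In OVX, replicates 2 to 5 had overlapping intervals of 0.792% to 1.16%, 0.489% to 0.815%, 0.724% to 1.09% and 0.649% to 1.01%. Such intervals cover counting error only, since amplicon reads are not independent molecules. Between the lowest and the highest of all libraries the share differed 55.7-fold. Within OVX+GEX the range was 42-fold, against 3.08-fold in OVX+FMT, 3.56-fold in OVX+PBS, 2.91-fold in OVX and 4.36-fold in Sham. Among the genera of a library, Bacteroides ranked between 4th by count, in OVX+PBS replicate 5, and 44th, in OVX+GEX replicate 2. Across the 25 libraries the log2 share had a Pearson correlation of 0.12 with the log2 library total, and the Spearman rho was 0.025, given as a description.

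By group mean, the order from high to low was OVX+PBS at 2.22% ± 0.973, OVX+FMT at 1.52% ± 0.839, Sham at 1.25% ± 0.882, OVX+GEX at 1.24% ± 1.16 and OVX at 1.03% ± 0.471 (SD, n = 5 each). By median the order was OVX+PBS at 1.92%, OVX+FMT at 1.32%, OVX+GEX at 1.02%, Sham at 0.932% and OVX at 0.889%. No neighbours in the order of means differed beyond their spread. Each of the 10 pairs of groups was tested on the difference of means by exact two-sided permutation, with p-values adjusted over the 10 pairs by the Benjamini-Hochberg method; with 5 libraries against 5 the smallest p is 0.00794. No pair passed 0.05 after adjustment. A lone pair could not have done so with this test, since even the smallest p stays above 0.05 when adjusted over the 10 pairs.

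Whether the OVX label went with another level of Bacteroides is the first comparison of the design. OVX libraries averaged 1.03% and Sham libraries 1.25%, a difference of -0.229 percentage points (exact p = 0.627, adjusted p = 0.776). Counts summed per genus were also fitted with edgeR's quasi-likelihood F test, which scales libraries by TMM factors and tested 81 genera. For OVX over Sham its log2 fold change was 0.15 ± 0.75 (SE), with a 95% interval of -1.38 to 1.68 and an edgeR adjusted p of 0.887. The sign of this change depended on the scaling: with plain library totals it was -0.29, while the median of all 81 genera was 0.15 under TMM and -0.22 under plain totals. As a ratio of OVX over Sham the interval ran from 0.384 to 3.20, so changes within that range, in either direction, were not excluded by this fit. In this comparison edgeR called 0 of 81 genera (0%) at an adjusted p under 0.05.

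The OVX+GEX group was set against OVX, the same label without GEX. The mean share was 1.24% in OVX+GEX and 1.03% in OVX, a difference of 0.218 percentage points (exact p = 0.698, adjusted p = 0.776). Of the OVX+GEX libraries, 2 lay above every OVX library, and 2 lay below every OVX library. In the edgeR fit the log2 fold change was 0.55 ± 0.75 (SE; 95% interval -0.98 to 2.08; edgeR adjusted p = 0.936), and it was 0.28 with plain totals. The mean of log2 shares had the opposite sign, -0.61. In this pair edgeR called 0 of 81 genera (0%).

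OVX+PBS was the group with the most Bacteroides. Its mean share of 2.22% was 1.19 percentage points above the 1.03% of OVX, and all 5 OVX+PBS libraries lay above the OVX median while 4 lay above every OVX library. The exact permutation p was 0.0238 before adjustment and 0.238 after adjustment over the 10 pairs. By edgeR the log2 fold change was 1.51 ± 0.76 (SE; 95% interval -0.06 to 3.07; edgeR adjusted p = 0.336), with 1.11 under plain totals. Over the 81 genera of this pair the median log2 fold change was -0.47, and edgeR called 0 genera (0%). Against Sham, the mean share of OVX+PBS was 0.965 percentage points higher (exact p = 0.119, adjusted p = 0.595), and 5 of 5 OVX+PBS libraries lay above the Sham median. The edgeR log2 fold change of OVX+PBS over Sham was 1.65 ± 0.77 (SE; 95% interval 0.09 to 3.22; unadjusted p = 0.0392, edgeR adjusted p = 0.215). In that pair the median of all genera was -0.48, and 1 genus of 81 (1.23%) was called; it was not Bacteroides.

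OVX+FMT was set against OVX+PBS, taken here as its vehicle group, a role that the labels do not state. The mean share was 1.52% in OVX+FMT and 2.22% in OVX+PBS, a difference of -0.700 percentage points (exact p = 0.238, adjusted p = 0.595). The edgeR log2 fold change was -0.49 ± 0.75 (SE; 95% interval -2.02 to 1.04; edgeR adjusted p = 0.709), and -0.55 with plain totals, beside a median of 0.62 over all genera. In this pair edgeR called 0 of 81 genera (0%). Every OVX+FMT library lay above the Sham median and above the OVX median, yet the mean differed by only 0.264 percentage points against Sham (exact p = 0.468, adjusted p = 0.776) and 0.493 against OVX (exact p = 0.317, adjusted p = 0.635). The edgeR log2 fold changes were 1.16 over Sham (adjusted p = 0.434; 1 genus of 81, or 1.23%, called) and 1.01 over OVX (adjusted p = 0.827; 0%).

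The remaining 3 pairs did not pass the threshold. OVX+GEX and Sham had nearly the same mean share, a difference of -0.0113 percentage points (exact p = 1), and edgeR called 4 of 81 genera (4.94%), Bacteroides not among them, with its log2 fold change at 0.70 (95% interval -0.84 to 2.23; adjusted p = 0.893). With plain totals that fold change was -0.0115. OVX+FMT exceeded OVX+GEX by 0.276 percentage points (exact p = 0.690; edgeR log2 fold change 0.46, adjusted p = 0.899; 0% of genera called). OVX+GEX lay 0.976 percentage points below OVX+PBS (exact p = 0.183, adjusted p = 0.595; edgeR log2 fold change -0.96, adjusted p = 0.50; 0% of genera called). OVX, OVX+PBS and Sham libraries serve in several of these pairs, so the pairs are not independent of each other.

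**Figure D2:**
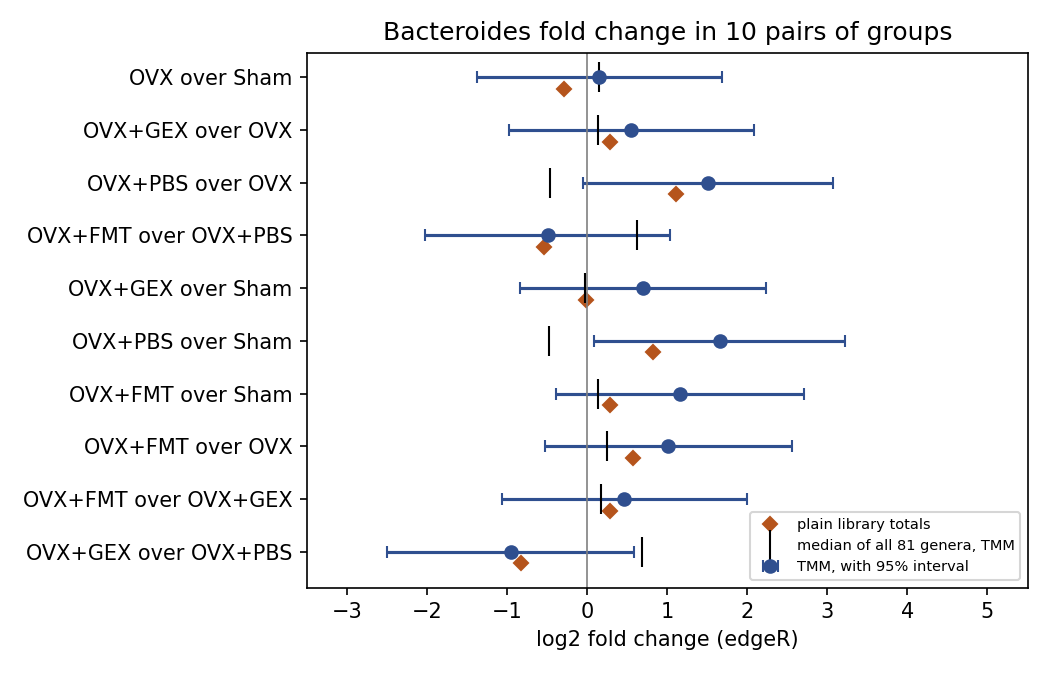
Log2 fold change of Bacteroides in each of the 10 pairs of groups, the first-named group over the second. Circles with bars are edgeR estimates after TMM scaling with 95% intervals, diamonds are estimates with plain library totals, and ticks are medians of all 81 genera under TMM. The interval of OVX+PBS over Sham, 0.09 to 3.22, alone leaves out 0, and no pair passes an adjusted p of 0.05.

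At an unadjusted p under 0.05, edgeR called between 5 and 17 genera in a pair, and at an adjusted p under 0.05 DESeq2 called 0 to 7 and limma 0 to 3. The same test on single ASVs, 379 of which passed the filter, gave the Bacteroides ASV log2 fold changes between -0.64 (OVX+GEX over OVX+PBS) and 0.95 (OVX+PBS over OVX), with edgeR adjusted p-values of 0.627 to 1. edgeR called 4 of 379 ASVs (1.06%) in OVX+FMT over Sham, 1 (0.264%) in OVX+FMT over OVX+GEX and 0 (0%) in the other 8 pairs, the Bacteroides ASV never among them. At an unadjusted p, edgeR called 65 to 97 ASVs in a pair, and DESeq2 called 1 to 11 at an adjusted p under 0.05.

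Among its own phylum, Bacteroides was a minor member beside Duncaniella. The phylum Bacteroidetes held 29 ASVs in 3 genera and 73398 counts. Duncaniella, of the Muribaculaceae, the most abundant family of the phylum in the mouse gut, held 92.4% of them with 26 ASVs. Bacteroides held 6.01% and Parabacteroides, of the Tannerellaceae, 1.62% with 2 ASVs. Within the phylum, the share of Bacteroides stayed between 3.11% and 10.3% in all 25 libraries. It averaged 6.44% ± 1.96 in OVX+FMT, 6.05% ± 2.75 in OVX+GEX, 5.73% ± 1.11 in OVX+PBS, 4.49% ± 1.72 in OVX and 8.02% ± 1.93 in Sham (SD, n = 5 each).

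Bacteroides and Duncaniella moved together from library to library. OVX+GEX replicate 2, with the lowest Bacteroides share, had the lowest Duncaniella share too, 1.87%, and OVX+PBS replicate 5 had the highest of both, with 61.9% Duncaniella. The log2 shares of the 2 genera had a Pearson correlation of 0.89 over the 25 libraries, and of 0.91 after group means were subtracted. It was 0.89 over the 23 libraries left without OVX replicate 1 and OVX+PBS replicate 5, whose Duncaniella percents lay farthest from the median. The lowest points on the log scale, OVX+GEX replicates 2 and 3, stayed in. That value therefore cannot show whether the correlation rests on them. The Spearman rho of the shares was 0.77. These values are a description, since both genera share each library's total, and no p is given. The SD of the log2 share of Bacteroides over all libraries was 1.25, and that of its log2 ratio to Duncaniella was 0.56.

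**Figure D3:**
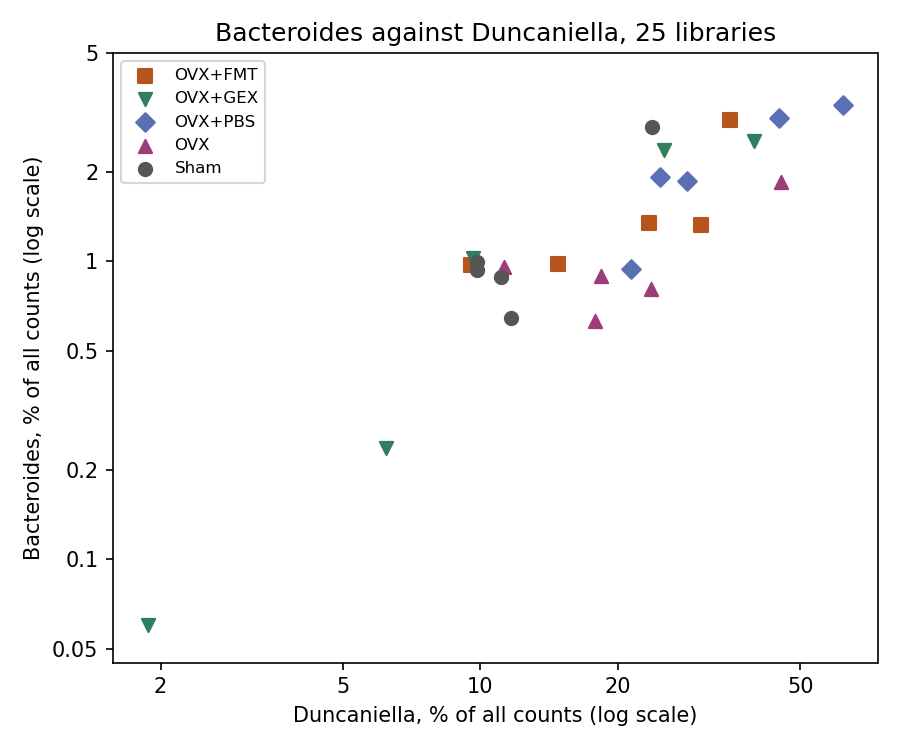
Bacteroides against Duncaniella, each as a percent of all counts, on log axes. Each point is 1 of 25 libraries, with the group given by colour and shape. The points follow 1 diagonal band from OVX+GEX replicate 2, at 0.0601% and 1.87%, up to OVX+PBS replicate 5, at 3.35% and 61.9%.

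The ratio of Bacteroides to Duncaniella counts does not move with the other genera of a library, and on this measure Sham had the highest mean. With 0.5 added to each count, the log2 ratio was -4.62, -3.55, -4.80, -4.36 and -4.86 in OVX replicates 1 to 5. In Sham it was -3.07, -3.39, -4.17, -3.31 and -3.64. Every OVX library was under the median of Sham, though OVX replicate 2 was above 2 Sham libraries. The means were -4.44 ± 0.53 in OVX and -3.52 ± 0.42 in Sham (SD, n = 5 each), a difference of -0.92 (exact p = 0.0238, adjusted over the 10 pairs 0.238). OVX+PBS also lay below Sham: the ratios were -3.92, -4.49, -3.68, -3.89 and -4.21, with a mean of -4.04 ± 0.31, a difference of -0.52 from Sham (exact p = 0.0476, adjusted p = 0.238). Again 5 of 5 libraries were below the Sham median. Neither difference passed adjustment, where the same limit of the permutation test holds for a lone pair. Duncaniella, the denominator, averaged 23.3% ± 13.1 of counts in OVX and 36.2% ± 17.0 in OVX+PBS, against 13.2% ± 5.91 in Sham (SD, n = 5 each). Its edgeR log2 fold change was 1.26 in OVX over Sham (adjusted p = 0.553) and 2.33 in OVX+PBS over Sham (adjusted p = 0.0645), beside 0.15 and 1.65 for Bacteroides.

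In OVX+FMT the log2 ratio was -4.52, -3.91, -4.12, -3.29 and -3.55, and in OVX+GEX it was -3.41, -4.85, -4.69, -3.23 and -3.97. OVX+GEX thus spanned nearly the whole range of the 25 libraries, with replicates 2 and 3 at its low end. The means were -3.88 ± 0.48 in OVX+FMT and -4.03 ± 0.73 in OVX+GEX. Set against OVX, the ratio was higher by 0.56 in OVX+FMT (exact p = 0.135), by 0.41 in OVX+GEX (exact p = 0.333) and by 0.40 in OVX+PBS (exact p = 0.190), with adjusted p-values of 0.423, 0.476 and 0.423. OVX+FMT and OVX+PBS differed by 0.16 (exact p = 0.524, adjusted p = 0.655). Against Sham the differences were -0.36 in OVX+FMT (exact p = 0.254) and -0.51 in OVX+GEX (exact p = 0.222), both with an adjusted p of 0.423. OVX+FMT and OVX+GEX differed by 0.15 and OVX+GEX and OVX+PBS by 0.01, with adjusted p-values of 0.776 and 0.960.

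**Figure D4:**
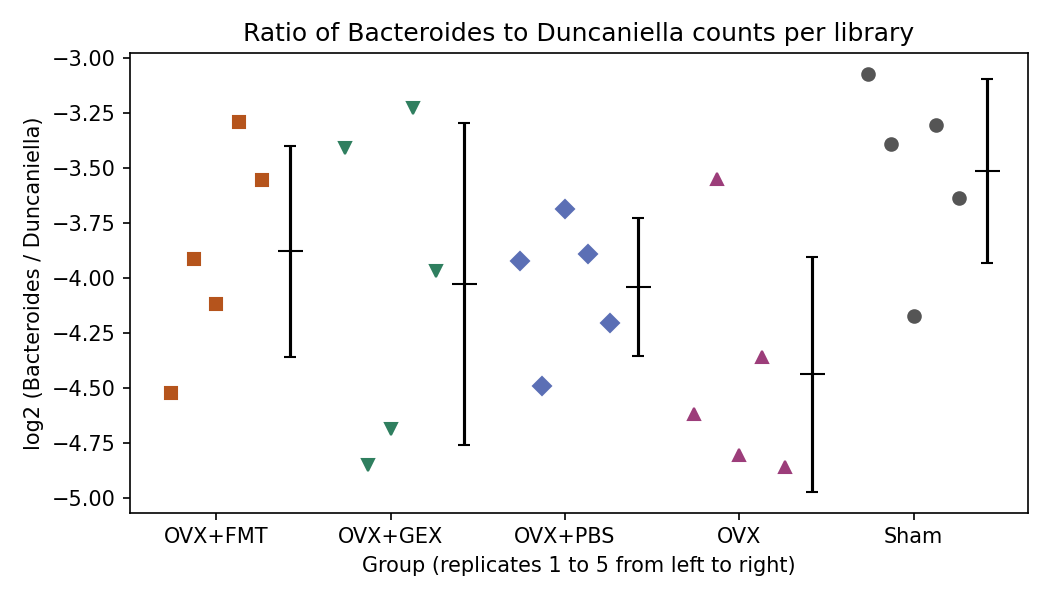
Log2 ratio of Bacteroides to Duncaniella counts, with 0.5 added to each, in each library. Points are replicates 1 to 5 from left to right, and the black bar beside each group is its mean ± SD (n = 5). The OVX mean is -4.44 and the Sham mean -3.52, and the ranges of the 2 groups overlap.

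Parabacteroides, which also uses host and plant glycans, was rarer than Bacteroides in every group mean. It averaged 0.408% ± 0.211 in OVX+FMT, 0.353% ± 0.394 in OVX+GEX, 0.542% ± 0.432 in OVX+PBS, 0.403% ± 0.196 in OVX and 0.363% ± 0.272 in Sham (SD, n = 5 each). It had 0 counts in OVX+GEX replicate 2, where 3 counts, the limit that a count of 0 allows, would be 0.0301%. All 10 pairs had an adjusted exact permutation p of 0.984. The list of Bacteroidales relatives named 14 genera, of which Duncaniella and Parabacteroides were present, and the edgeR fit of all 25 libraries called neither in any pair. For OVX+PBS over Sham, Duncaniella was called higher by DESeq2 (adjusted p = 0.00321) and in an edgeR fit of those 2 groups alone (adjusted p = 0.0129). DESeq2 called 7 of all 81 genera (8.64%) in that pair, its highest number in any pair.

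Of 11 genera listed as mucin glycan users, 6 were present and tested, Bacteroides and Parabacteroides among them. Akkermansia, a mucin degrader of another phylum with 1 ASV, was the most abundant of these and was above Bacteroides in the mean of 4 groups. It averaged 4.25% ± 3.13 in OVX+FMT, 2.33% ± 1.22 in OVX+GEX, 1.61% ± 1.03 in OVX+PBS, 2.24% ± 1.72 in OVX and 3.34% ± 2.64 in Sham, so OVX+PBS was the group in which the mean of Bacteroides was higher. The edgeR fit of all 25 libraries called none of the 6 in any pair. Bifidobacterium, a glycan-using genus on this list, was called higher in OVX+FMT over OVX+PBS, over OVX and over Sham by limma, and by edgeR without OVX+FMT replicate 4. In these pairs limma called 1.23%, 3.7% and 2.47% of all genera. Bifidobacterium was seen in 6 libraries and averaged 0.266% ± 0.240 in OVX+FMT, 0.00928% in OVX+GEX, 0.00345% in Sham and 0% in OVX+PBS and OVX. It passed the filter of 5 libraries only through OVX+FMT, where it was high, so these calls cannot stand as support. In OVX+FMT over OVX+PBS the edgeR log2 fold change of Akkermansia was 1.28 ± 0.61 (SE, adjusted p = 0.308), beside -0.49 for Bacteroides. The list's median log2 fold change was -0.24 in OVX over Sham, 0.35 in OVX+GEX over OVX, 0.03 in OVX+PBS over OVX and -0.15 in OVX+FMT over OVX+PBS, beside 0.15, 0.13, -0.47 and 0.62 for all 81 genera.

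Of 22 genera listed because some members are known to carry a beta-glucuronidase, 16 were present and 14 were tested. Together they held 39.5% ± 8.10 of counts in OVX+FMT, 41.4% ± 15.0 in OVX+GEX, 29.2% ± 12.3 in OVX+PBS, 39.5% ± 12.8 in OVX and 27.2% ± 5.65 in Sham. Ligilactobacillus, a lactic acid bacterium, was the most abundant member. Alone it averaged 24.9% in OVX+FMT, 29.2% in OVX+GEX, 15.6% in OVX+PBS, 24.8% in OVX and 11.9% in Sham. The sums therefore mainly followed this genus and do not show a difference of the listed genera as a class. The list's median log2 fold change was 0.22 in OVX over Sham, 0.08 in OVX+GEX over OVX, -0.08 in OVX+PBS over OVX and 0.10 in OVX+FMT over OVX+PBS. In the edgeR fit of all 25 libraries, members of this list were called in OVX+GEX over Sham alone, where 2 of 14 were called higher and 0 lower, against 4.94% of all genera. Of the 14 estimates in that pair, 7 were up and 7 down, with a median of 0.17 beside -0.02 for all 81 genera. Ligilactobacillus averaged 29.2% ± 13.6 in OVX+GEX and 11.9% ± 6.37 in Sham, which edgeR gave as a log2 fold change of 1.95 ± 0.57 (SE, adjusted p = 0.0390). Shigella, an enterobacterium, had 14, 0, 0, 419 and 0 counts in OVX+GEX replicates 1 to 5 and 0 counts in all 5 Sham libraries, so its mean share was at least 41.5-fold higher in OVX+GEX when 3 counts per library stand in for the Sham zeros (adjusted p = 0.0390 by edgeR). Its OVX+GEX counts lay almost wholly in replicate 4. The number of members called varied: of 19 alternatives for this pair, 3 called 2 members, 7 called 1 and 9 called 0. The 9 with 0 included plain library totals, limma, an edgeR fit of the 2 groups alone, and leaving out OVX+GEX replicate 4 or Sham replicate 1, 2, 4 or 5. Neither genus was particular to OVX+GEX. By DESeq2, Shigella was also called higher over Sham in OVX (3 counts, in replicate 4), OVX+PBS and OVX+FMT, and Ligilactobacillus in OVX+FMT. In these pairs DESeq2 called 1.23%, 8.64% and 7.41% of all genera. For OVX+PBS over Sham, an edgeR fit of those groups alone called Lactobacillus higher and Clostridium and Hungatella lower.

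The genera most like Bacteroides were sought by the Spearman rho of centred log-ratios (the log2 of a count plus 0.5, minus the library's mean over the 81 genera) across the 25 libraries. Duncaniella came first with a rho of 0.90, and 0.86 after group means were subtracted. Phocea followed with 0.70 and 0.65, Lawsonibacter with 0.68 and 0.54, and Flavonifractor with 0.62 and 0.82. These 3 are Firmicutes in the taxonomy of the files. Phocea and Flavonifractor were rare, with mean shares of 0.197% and 0.107%, and Flavonifractor had 0 counts in 3 libraries. Unlike Bacteroides, highest in OVX+PBS, both had their highest group mean in Sham, 0.277% and 0.172%, and Lawsonibacter in OVX+GEX, 2.10%. Parabacteroides, the other relative in the phylum, came 6th with 0.57. At the other end stood Lachnoclostridium at -0.75 and Schaedlerella at -0.75, both of the Lachnospiraceae, and after group means were subtracted they had -0.68 and -0.76. The values are a description with no p, and all points share the centring and each library's total.

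Lachnoclostridium averaged 1.32% of counts in OVX+FMT, 3.17% in OVX+GEX, 1.29% in OVX+PBS, 3.47% in OVX and 6.80% in Sham. OVX+PBS had the lowest mean of Lachnoclostridium and the highest of Bacteroides. With shares in place of centred log-ratios the rho with Lachnoclostridium was -0.59 and that with Schaedlerella -0.67. On the same scale Duncaniella had 0.77, Phocea 0.55, Flavonifractor 0.53 and Lawsonibacter 0.40.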

How the data were processed

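The deposited table, converted by the authors from a BIOM file per the file headers, holds whole-number read counts per ASV with a taxonomy of 7 ranks. The submitters' processing notes name Subread without a version or role; which denoiser, primers, database or filters were used is not given in the sources used here. DNA came from a commercial fecal DNA kit, per the labels' protocols. Of the values, 0 were 1 and 464 were 2. Columns were matched to samples by name; 5 are spelled OVX+GES where titles read OVX+GEX.

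Shares are percents of all counts in a library. Genera and ASVs with at least 3 counts in at least 5 libraries were tested in 1 fit of all 25 libraries with edgeR 4.0.16 (R 4.3.3), quasi-likelihood F test, TMM, Benjamini-Hochberg over all features tested, threshold 0.05; SEs came from the F statistic. Scripts were tested on simulated data. DESeq2 1.42.0, limma 3.58.1, other scalings and filters, and leaving out libraries were alternatives. Single values were compared by exact permutation over 252 splits with scipy 1.17.1. Genera were named by rule: list members called, or else the most abundant 2 of each list, and the 4 most and 2 least like Bacteroides. The members and lists were chosen with earlier results of these data known. Replicate numbers were not taken to pair libraries, though these values cannot exclude pairing: 50 same-number correlations ran from -0.286 to 0.336, with a median of 0.0611. No 2 libraries were identical (smallest Bray-Curtis distance within a group 0.300). Planned measures of ASV richness and of the leading ASV within the genus gave nothing to compare, since the genus is 1 ASV seen in all libraries.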

Additional observations from a re-analysis of the deposited data

Results flagged for a closer look

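Within their groups of 5, 3 libraries had a Bacteroides share far above the others, the gap to the next library divided by the group's range passing Dixon's critical value of 0.71. OVX+FMT replicate 5 had 2.98% (gap over range 0.816), OVX replicate 1 had 1.84% (0.730) and Sham replicate 1 had 2.81% (0.841). Chance passes this value in about 1 of 20 groups. On the log2 scale OVX+FMT replicate 5 stayed above it (0.712), while OVX replicate 1 (0.611) and Sham replicate 1 (0.709) did not. The Duncaniella share of these 3 libraries was 35.1%, 45.4% and 23.7%, the highest of its own group each time, and no library stood apart in the ratio of Bacteroides to Duncaniella. Without the 3 libraries, an alternative chosen after seeing the data, OVX+PBS exceeded OVX by 1.40 percentage points (exact p = 0.0238, adjusted p = 0.0952) and Sham by 1.35 (exact p = 0.0238, adjusted p = 0.0952). OVX+FMT then exceeded OVX by 0.331 (exact p = 0.0286, adjusted p = 0.0952), with a p that is the smallest the libraries left in these groups allow. Each of the 3 had the highest tested share of its group, so leaving them out was bound to widen the gaps of OVX+PBS over OVX and Sham. The p-values without the 3 libraries therefore cannot stand as support. The part of depth, cage or donor in these libraries was not tested.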

How the results depend on the processing

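Of 610 Bacteroides values recomputed under alternatives, 576 kept their direction and side of the threshold, 34 changed sign and 0 crossed the threshold. For the share and the log2 ratio, tested by permutation, a lone pair could not have crossed it, so the 0 shows little there. Of the 576, 150 were counts of Bacteroides ASVs past the threshold, which were 0 and had no direction to change. The share difference with the replicate block equals the main one by construction. The changes of sign were 17 in the share, 10 in the genus log2 fold change and 7 in the log2 ratio to Duncaniella. For the share (percentage points unless another scale is named), OVX minus Sham was 0.354 with Duncaniella and Ligilactobacillus out of the denominator and 0.34 as a centred log-ratio. OVX+GEX minus OVX was -0.61 as log2 share and -0.50 as a centred log-ratio. OVX+GEX minus Sham was 1.08 with that other denominator and 0.379 without the 3 libraries that stand apart, and OVX+FMT minus OVX+GEX was -0.0907 without them. For the genus log2 fold change, OVX over Sham was -0.29 with plain library totals and -0.16 with no filter. The fit of single ASVs, with the same Bacteroides counts, gave -0.28 for OVX over Sham. OVX+GEX over OVX was -0.50 with limma and -0.14 with the replicate block, and OVX+GEX over Sham was -0.0115 with plain totals and -0.16 with limma. The cause was not tested. Leaving out each library in turn, the share difference ran from -0.433 to 0.161 (OVX minus Sham), -0.103 to 0.513 (OVX+GEX minus OVX), -0.332 to 0.379 (OVX+GEX minus Sham), -0.102 to 0.655 (OVX+FMT minus Sham) and -0.0907 to 0.596 (OVX+FMT minus OVX+GEX). The log2 ratio ran from -0.0573 to 0.35 (OVX+FMT minus OVX+GEX) and -0.19 to 0.22 (OVX+GEX minus OVX+PBS). The edgeR log2 fold change ran from -0.32 to 0.71 (OVX over Sham), -0.36 to 0.86 (OVX+GEX over OVX) and -0.10 to 1.26 (OVX+GEX over Sham). OVX+PBS over Sham came nearest the threshold, with an adjusted p of 0.0520 by DESeq2 and 0.0559 in an edgeR fit of those 2 groups alone; over its alternatives the adjusted p ran from 0.0520 to 0.418. With the replicate number as a block, the exact sign-flip test of the share cannot go below p = 0.0625 over 5 pairs; it gave 0.125 for OVX+PBS minus OVX, and the block changed no call for Bacteroides. Same-number correlations passed 0.1 in 18 of 50 pairs, and 5 of 25 libraries correlated best with their own number. Calls on the listed genera moved more, between 0 and 3 per list and pair, with 0 to 2 of the beta-glucuronidase list in OVX+GEX over Sham (0 with the replicate block). Duncaniella was called in OVX+PBS over Sham in 3 of 19 alternatives: by DESeq2, in the edgeR fit of the 2 groups alone and with the replicate block (adjusted p = 0.0382). Shares near the floor, 0.0134% to 0.0353% of a library, have little precision, and 5 libraries per group limit every test.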

Other observations

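The 4 ASVs of the bracketed genus [Bacteroides], species name pectinophilus and phylum Firmicutes, stand in another phylum than the Bacteroides ASV. They were looked at after their values were seen. They had 13 counts in OVX+FMT, all in replicate 4, and 0 counts in every OVX+GEX, OVX+PBS and OVX library, against 37 counts in Sham, with 4, 4, 0, 23 and 6 in replicates 1 to 5. Against a floor of 3 counts per library, the mean share was at least 1.66-fold lower in OVX than in Sham. Most of the Sham counts lay in replicate 4, the library with the largest total. The genus met the filter of at least 3 counts in at least 5 libraries only through 4 Sham libraries and 1 OVX+FMT library. A test against Sham is therefore not independent of the filter and cannot stand as support for a difference. edgeR's adjusted p was 0.305 in OVX over Sham, 0.271 in OVX+GEX over Sham and 0.214 in OVX+PBS over Sham.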
